A study of Homo sapiens with 6 samples.

Results

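The genes described here encode parts of the translation machinery, together with intronless copies of such genes. They are EIF4B and its copy EIF4BP7, PABPC1 and its copy PABPC3, SARS1, and EIF2S2P4, a copy of EIF2S2. They were chosen by name and role, with earlier results of these data known. These 6 rows were found among the 219 rows of the table, of which 44 carry a gene symbol. They do not hold every translation row, since EIF1, described below, is not among them. Total RNA-seq was performed in MDA-MB-231, a human triple-negative breast cancer cell line whose name the labels spell MBA-MD-231. The 3 shControl libraries came from cells with a control short hairpin RNA and the 3 knockdown libraries from cells with a hairpin against RESF1, to ask how RESF1 depletion affects transcription. Both groups were grown under puromycin at 10 ug/ml, and RNA was collected 24 hours after seeding. The column names tie the knockdown to the hairpin sh-RESF1 G5, so 1 hairpin stands for the depletion. The replicates were dishes seeded in triplicate, and the p-values therefore measure the spread between such dishes.

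Translation of most mRNAs starts when initiation factors unwind the 5' end of the message and bring the small ribosomal subunit to it. EIF4B stimulates the RNA helicase of this step, PABPC1 binds the poly(A) tail and contacts the initiation complex at the other end of the mRNA, and EIF2S2 is the beta subunit of eIF2, which delivers the initiator tRNA. SARS1 is the cytosolic seryl-tRNA synthetase, which charges tRNA with serine. Messages of such abundant housekeeping genes have often been reverse transcribed and inserted elsewhere in the genome, leaving processed copies without introns. Most of these are pseudogenes, whereas PABPC3 has kept an open reading frame and is known as a poly(A)-binding protein gene of the testis.

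The sequences of the hairpin and of a copy beside its parent are shown first, because they define the knockdown and what a read can tell apart. The hairpin target matched transcripts of 1 gene in GENCODE 44 without a mismatch, RESF1, on the plus strand of chromosome 12 (GRCh38, positions 31992419 to 31992439), in the coding part of exon 6 of 6.
sh-RESF1 G5: gatggatttgagatgctacaa

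EIF4B lies on chromosome 12 (GRCh38, positions 53006282 to 53042215, plus strand) and its main transcript has 15 exons. EIF4BP7 is a single-exon processed pseudogene on the minus strand of chromosome X (positions 111619677 to 111621489) with no overlapping annotated gene. The stretch below is the 60 coding bases around the junction of exons 8 and 9 of EIF4B, at chr12:53028159-53028188 and chr12:53033806-53033835, beside the same bases of EIF4BP7 at chrX:111620502-111620561. Capitals mark the 2 bases that differ.
EIF4B: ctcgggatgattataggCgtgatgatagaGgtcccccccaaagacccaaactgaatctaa
EIF4BP7: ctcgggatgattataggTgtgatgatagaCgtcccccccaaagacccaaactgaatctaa

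In EIF4B an intron of 5617 bases separates the 30 bases on either side of this junction, and in EIF4BP7 the intron is missing. Over the annotated copy, 1782 of 1836 aligned positions (97.1%) were identical to EIF4B, with 31 mismatches and 23 gap positions. EIF4BP7 ranked the third by identical bases among 9 annotated EIF4B copies, and it was the only one of the 9 with a row under its symbol. The likeness went on past the annotated copy. An alignment at chrX:111617654-111621516 covered 99.7% of the EIF4B transcript with 96.1% identity, and 25 of the next 30 bases were A. Processed copies commonly carry the remnant of a poly(A) tail. The longest open reading frame of the annotated copy had 125 codons against 611 in EIF4B.

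EIF2S2P4 is a single-exon processed pseudogene on the plus strand of chromosome 2 (GRCh38, positions 170751805 to 170752788), within the span of the antisense gene ERICH2-DT. Its parent EIF2S2 lies on the minus strand of chromosome 20 (positions 34088309 to 34112243), has 9 exons and has no row under its symbol. The 60 coding bases around the junction of exons 5 and 6 of EIF2S2 (chr20:34097416-34097445 and chr20:34096776-34096805) are shown because they are the same, base for base, in EIF2S2P4 (chr2:170752291-170752350), so that 0 bases are in capitals.
EIF2S2: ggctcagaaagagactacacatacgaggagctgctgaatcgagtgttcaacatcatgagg
EIF2S2P4: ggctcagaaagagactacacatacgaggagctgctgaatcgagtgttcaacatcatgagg

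The intron at this junction has 610 bases in EIF2S2. Over the annotated copy 973 of 1002 aligned positions (97.1%) were identical, the highest number of identical bases among 7 annotated EIF2S2 copies. EIF2S2P4 has an open reading frame of 327 codons, close to the 333 of EIF2S2, whereas the frame of EIF4BP7 is broken.

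Start regions were compared for the genes with an entry among the RefSeq promoters (GRCh38.p14), which 2 of the 6 genes had, EIF4B and SARS1. Messages of many translation factors begin with a tract of pyrimidines, the 5' terminal oligopyrimidine tract, through which their translation follows growth signals. The stretches below run from 50 bases before to 30 after the annotated start of EIF4B (chr12:53006406-53006485, plus strand) and of SARS1 (chr1:109213868-109213947, plus strand). Capitals mark the longest run of C and T that begins with C between 10 bases before and 12 bases after the start.
EIF4B: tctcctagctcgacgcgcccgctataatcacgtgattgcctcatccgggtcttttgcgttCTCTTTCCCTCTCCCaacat
SARS1: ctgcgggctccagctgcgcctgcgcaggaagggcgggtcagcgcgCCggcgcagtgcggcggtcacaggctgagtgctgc

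The run had 15 bases in EIF4B and 2 in SARS1. In EIF4B this longest run began at base 11 counted from the annotated start. At the annotated start itself the stretch reads ctttt, a shorter run of C and T that begins with C. Whether either run acts as such a tract was not tested. A run of at least 15 bases was found in 0.954% of all 35116 promoters and a run of at least 2 in 93.5%. The study is concerned with G-quadruplexes, so 4 runs of GG separated by 1 to 7 bases were also searched, on both strands of the 300 bases of each promoter. EIF4B and SARS1 both held this pattern, as did 81.4% of all promoters. With runs of GGG it was present in SARS1 and not in EIF4B, against 24.9% of all promoters. Within transcripts, on the sense strand, SARS1 had 4.70 patterns of GG runs per kb, more than 81.1% of 19701 coding transcripts, and PABPC3 had 0.321 per kb, more than 7.25% of them. EIF4BP7 had 2.76, EIF4B 1.82 and PABPC1 1.05 per kb, against a median of 2.24 for the coding transcripts. EIF2S2P4 had 0 in its 984 bases. These are matches of letters and say nothing of binding.

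How much of a copy a read could assign was described by sliding windows, since the length of the reads is not given in the sources used here. Of all windows of 75 bases in the copy, 49.5% of those in EIF2S2P4, 29.7% of those in EIF4BP7 and 2.66% of those in PABPC3 were found without a change in a transcript of the parent gene. At 150 bases the shares were 27.4%, 11.1% and 0%. In the other direction 13.7% of the 75-base windows of the main EIF4B transcript were found in the annotated EIF4BP7, and 2.91% of those of PABPC1 in the annotated PABPC3. Bases past the annotated copies, and the other copies of each parent, were not searched in this direction. More of the parent transcripts may therefore be shared. By exact matches alone, PABPC3 is thus the copy whose windows are most easily told from its parent, and EIF2S2P4 the least.

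**Figure D1:**
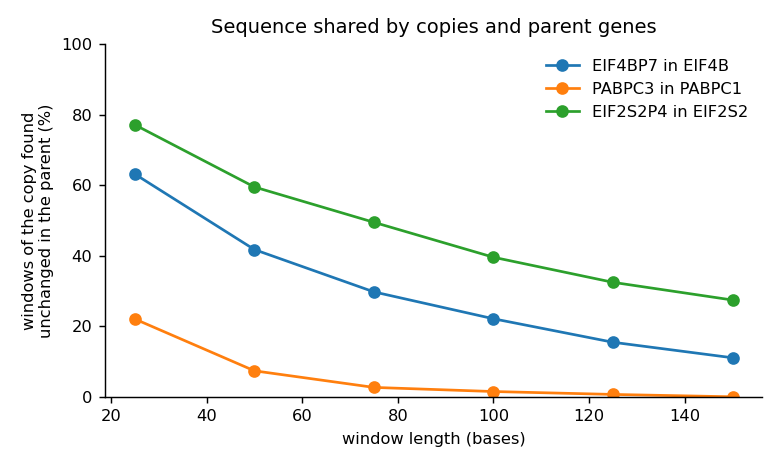
Share of all windows of a copy (y axis, percent) that occur unchanged in any GENCODE 44 transcript of the parent gene, by window length in bases (x axis). EIF2S2P4 lies above EIF4BP7 and EIF4BP7 above PABPC3 at every length, with 49.5%, 29.7% and 2.66% at 75 bases.

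The comparison of knockdown with shControl is limited by the table itself. Its values are the authors' normalized read counts. In all 219 rows the groups did not overlap (100% of rows), and all 219 passed limma at an adjusted p of 0.05 (100%), of which 120 (54.8%) were higher and 99 (45.2%) lower in knockdown. The table thus holds rows already separated by group, and the p-values given here are not independent evidence of a change. Of the 6 translation factor rows 6 were called, 4 higher and 2 lower, which read against a background of 100% is no result about these rows. Their median log2 change was 0.40 against 0.25 for all rows, and the median size of the change was 0.58 against 0.48. Rescaling the libraries by the median ratio over the 198 distinct rows lowered the median log2 change of the table by 0.22, to 0.03. Of the 219 rows it left 82 called as higher and 99 called as lower. Rescaled values are therefore given beside each change.

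**Figure D2:**
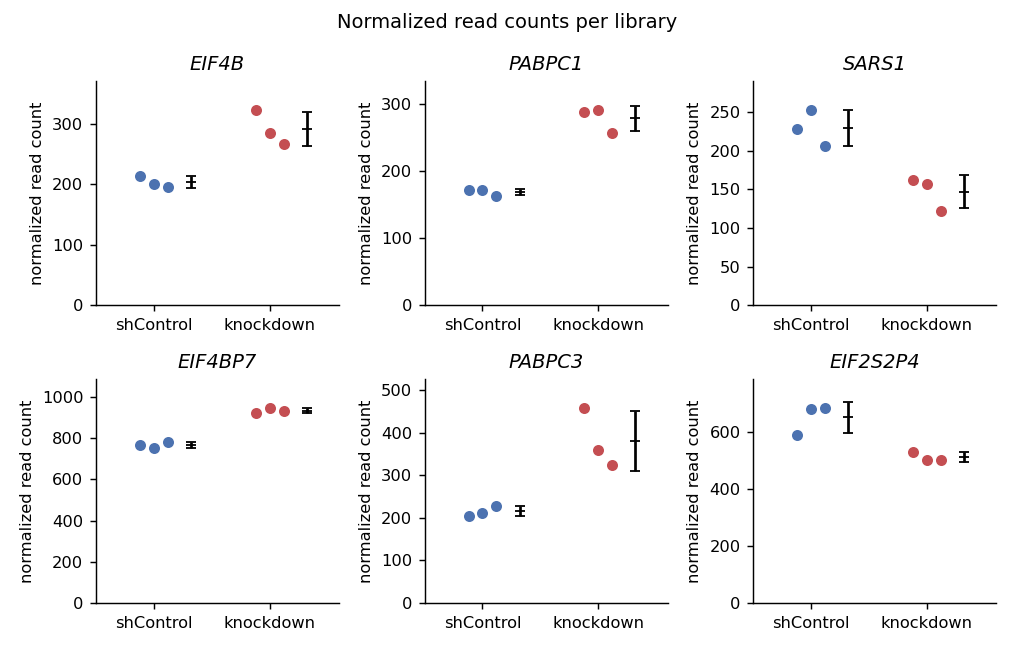
Normalized read count (y axis, from 0) of the 6 genes in the 3 shControl (blue) and 3 knockdown (red) libraries, with the mean and SD in black to the right. EIF4B, EIF4BP7, PABPC1 and PABPC3 were higher and SARS1 and EIF2S2P4 lower in every knockdown library than in every shControl library.

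EIF4B and its copy EIF4BP7 both rose on the deposited scale, by 43.2% and 21.8%. The EIF4B row had 214, 200.5 and 195 normalized read counts in the shControl libraries and 322, 285 and 266 in the knockdown libraries. Every knockdown library lay above every shControl library, and the closest pair differed 1.24-fold. The means were 203 ± 9.92 (SD, n = 3) and 291 ± 28.6 (SD, n = 3), a difference of 0.51 ± 0.085 (SE) on the log2 scale (adjusted p 0.00176, limma). After rescaling the log2 change was 0.29 (limma adjusted p 0.0188).

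EIF4BP7 had 768, 751 and 781 normalized read counts in shControl and 922, 947 and 933 in knockdown. It was the most even of the 6 rows, with a coefficient of variation of 1.95% in shControl and 1.35% in knockdown. The mean went from 767 ± 15.0 (SD, n = 3) to 934 ± 12.6 (SD, n = 3), a difference of 0.28 ± 0.051 (SE) on the log2 scale (adjusted p 0.00208, limma). This call depended on the scale, since after rescaling the log2 change was 0.07 (limma adjusted p 0.263). A transcript ID, CHM13_T0227325, carried the same 6 values and was taken as a duplicate of this row.

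The pseudogene row was higher than that of the gene it was copied from. EIF4BP7 had 3.59, 3.75 and 4.01 times the normalized read count of EIF4B in the shControl libraries and 2.86, 3.32 and 3.51 times in the knockdown libraries. The ratio was lower in every knockdown library than in every shControl library, by a log2 difference of -0.23 (SE 0.10, two-sided exact permutation p 0.1, or 0.15 when adjusted over 3 ratios). This is the smallest p that 3 against 3 libraries allow. Without the knockdown library in column 4 the difference was -0.14. Per kb of the annotated transcript, 3856 bases in EIF4B and 1813 in EIF4BP7, the mean level of the copy was 8.03 times that of the parent in shControl and 6.83 times in knockdown. The EIF4B gene has 14 annotated transcripts, and which of them the row covers is not given in the sources used here. Given the shared windows above, the division of reads between EIF4B and EIF4BP7 is uncertain, and its part in these values was not tested.

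PABPC1 and PABPC3 rose the most of the 6. PABPC1 lies on the minus strand of chromosome 8 (GRCh38, positions 100685816 to 100722809), has 15 exons in its main transcript, and encodes the major cytoplasmic poly(A)-binding protein. Its row had 171, 172 and 163 normalized read counts in shControl and 288, 291 and 257 in knockdown. The closest libraries of the groups differed 1.50-fold, the widest gap among the 6 genes. The means were 169 ± 4.88 (SD, n = 3) and 279 ± 18.4 (SD, n = 3), a rise of 65.2% and a difference of 0.72 ± 0.068 (SE) on the log2 scale (adjusted p 0.000498, limma). After rescaling it was 0.50 (limma adjusted p 0.000702).

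PABPC3 is annotated as a protein-coding gene of 1 exon on the plus strand of chromosome 13 (GRCh38, positions 25096136 to 25099254). Its frame has 631 codons against 636 in PABPC1, and 2270 of 2461 aligned positions (92.2%) of the transcripts were identical. The row had 205, 212 and 228 normalized read counts in shControl and 458, 359 and 324 in knockdown, the library in column 4 standing above the other knockdown libraries. The means were 215 ± 11.7 (SD, n = 3) and 380.3 ± 69.6 (SD, n = 3), a difference of 0.81 ± 0.13 (SE) on the log2 scale (adjusted p 0.00153, limma). It was 0.66 without the library in column 4, and 0.59 after rescaling (limma adjusted p 0.00442). CHM13_T0055160 carried the same 6 values.

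The ratio of PABPC3 to PABPC1 overlapped between groups. It was 1.20, 1.24 and 1.40 in the shControl libraries and 1.59, 1.23 and 1.26 in the knockdown libraries, a log2 difference of 0.09 (SE 0.14, two-sided exact permutation p 0.6, adjusted 0.6). Without the knockdown library in column 4 the difference was -0.03, so its direction rested on that library. A difference between the changes of PABPC3 and PABPC1 was not detectable with 3 libraries per group. A row of similar height for the gene and its copy was seen per kb too, 59.0 ± 1.71 (SD, n = 3) for PABPC1 and 68.9 ± 3.75 (SD, n = 3) for PABPC3 in shControl. The windows above count exact matches only, and PABPC1 has 13 annotated copies named after it. The division of reads between PABPC1, PABPC3 and these copies is uncertain, so the row alone does not give the level of PABPC3 transcripts. Its part in these values was not tested. PABPC1 has 40 annotated transcripts, and which of them its row covers is not given in the sources used here.

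PABPC1 was also compared with EIF4B, since both act on the mRNA during initiation. The ratio of PABPC1 to EIF4B was 0.800, 0.857 and 0.837 in shControl and 0.894, 1.02 and 0.969 in knockdown. The groups did not overlap, and the log2 difference was 0.21 (SE 0.063, two-sided exact permutation p 0.1, the smallest possible, adjusted 0.15).

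**Figure D3:**
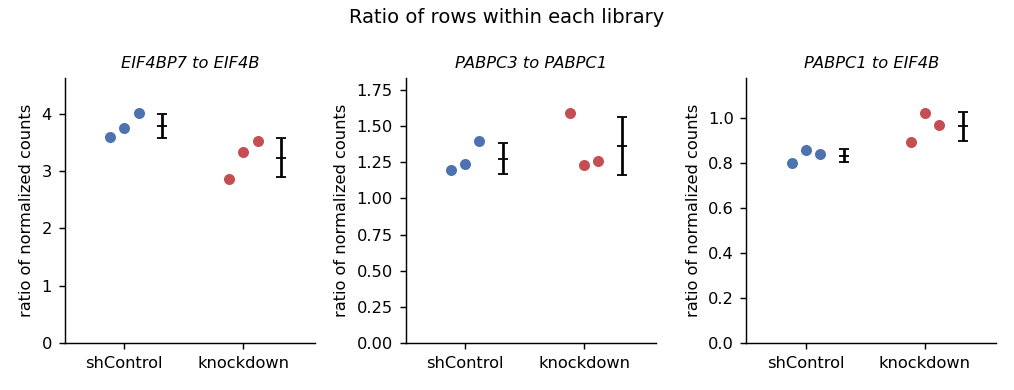
Ratio of the normalized read counts of 2 rows within each library (y axes, from 0) in shControl (blue) and knockdown (red), with the mean and SD in black. The ratio of EIF4BP7 to EIF4B was lower in knockdown (2.86 to 3.51 against 3.59 to 4.01), that of PABPC3 to PABPC1 overlapped, and that of PABPC1 to EIF4B was higher (0.894 to 1.02 against 0.800 to 0.857).

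SARS1 fell. It lies on the plus strand of chromosome 1 (GRCh38, positions 109213918 to 109238182), has 11 exons in its main transcript and 514 codons, and 0 annotated copies named after it. The row had 229, 253 and 207 normalized read counts in shControl and 162, 157 and 122 in knockdown, so that the highest knockdown library was 1.27-fold below the lowest shControl library. The means were 229 ± 23.1 (SD, n = 3) and 147 ± 21.6 (SD, n = 3), which is 1.56-fold lower, a difference of -0.64 ± 0.13 (SE) on the log2 scale (adjusted p 0.00287, limma). Rescaling made the fall larger, with a log2 change of -0.86 (limma adjusted p 0.000921). SARS1 had the widest spread in shControl of the 6 rows, with a coefficient of variation of 10.1%.

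EIF2S2P4 also fell. It had 589, 682 and 685 normalized read counts in shControl and 531, 502 and 503 in knockdown. The groups did not overlap, but the gap was the narrowest of the 6, with 1.11-fold between the closest libraries. The means were 652 ± 54.2 (SD, n = 3) and 512 ± 17.0 (SD, n = 3), a difference of -0.35 ± 0.076 (SE) on the log2 scale (adjusted p 0.00454, limma), or -0.56 after rescaling (limma adjusted p 0.000557). CHM13_T0129938 carried the same 6 values. EIF2S2 itself had no row under its symbol, so the copy could not be set beside its parent, and reads of EIF2S2 in this row could not be told apart from those of EIF2S2P4.

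**Figure D4:**
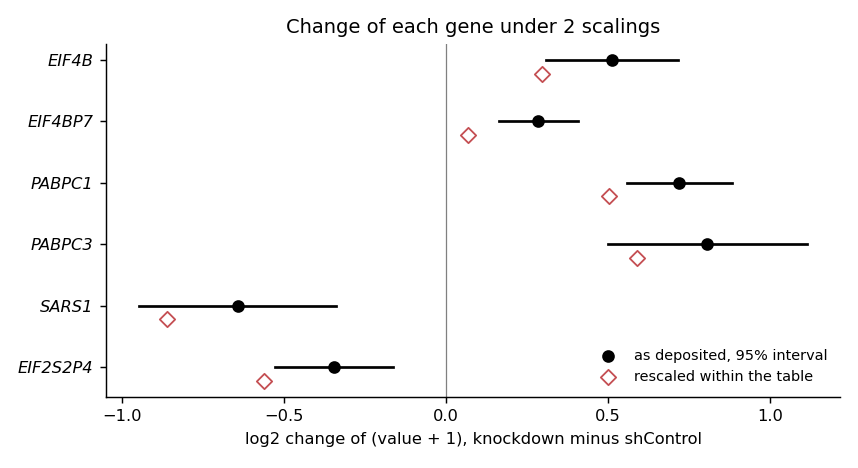
Log2 change of (value + 1), knockdown minus shControl (x axis), for the 6 genes. Black points and lines are the limma estimate with its 95% interval on the deposited scale, and open diamonds the estimate after rescaling within the table. Every gene moved to the left on rescaling, and EIF4BP7 went from 0.28 to 0.07.

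The order of levels was read per kb of the main annotated transcript, which is only a guide because the authors counted on another genome build. In shControl EIF2S2P4 had 663 ± 55.1 (SD, n = 3) normalized read counts per kb and EIF4BP7 423 ± 8.26 (SD, n = 3). SARS1 followed with 119.8 ± 12.1 (SD, n = 3), then PABPC3 and PABPC1 with the values given above, and EIF4B with 52.7 ± 2.57 (SD, n = 3). No neighbours in this order overlapped in their libraries. In knockdown EIF2S2P4 (520.2 ± 17.2, SD, n = 3) and EIF4BP7 (515 ± 6.94, SD, n = 3) overlapped, and so did SARS1 (76.8 ± 11.3, SD, n = 3) and EIF4B (75.4 ± 7.43, SD, n = 3). PABPC3 had 122 ± 22.3 (SD, n = 3) and PABPC1 97.4 ± 6.43 (SD, n = 3). SARS1, which stood above both in shControl, stood below both in knockdown, while EIF4B was below them in each group. The pseudogene rows were above all 4 protein-coding rows in both groups.

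**Figure D5:**
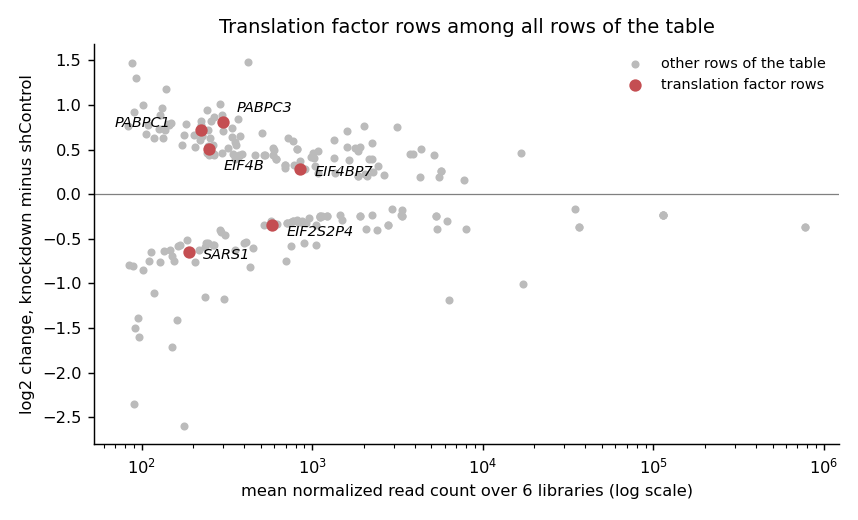
Log2 change of (value + 1), knockdown minus shControl (y axis), against the mean normalized read count over the 6 libraries on a log axis (x axis) for all 219 rows (grey), with the 6 translation factor rows in red. The red points lie among the grey ones, from -0.64 for SARS1 to 0.81 for PABPC3.

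Other parts of the translation machinery were mostly not among the rows with a symbol. Of 46 initiation factor genes 2 had a row, EIF4B, which rose, and EIF1, which fell. Of 15 poly(A)-binding proteins and partners PABPC1 and PABPC3 had a row, and of 23 cytosolic aminoacyl-tRNA synthetases and their partners SARS1 alone. None of 12 elongation and termination factors, 79 ribosomal proteins or 23 genes of the integrated stress response had one. The 175 rows with a transcript ID in place of a symbol were not given gene names, so such genes could still be among them. EIF1, which helps the ribosome to choose the start codon, had 532, 648 and 562 normalized read counts in shControl and 446, 451 and 469 in knockdown. The change was -0.35 ± 0.083 (SE) on the log2 scale (adjusted p 0.0063, limma), or -0.56 after rescaling (adjusted p 0.000846, limma), and the groups did not overlap.

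Copies of ribosomal protein genes had 2 rows, and both fell. RPL5P34 was lower in knockdown (688 ± 26.8, SD, n = 3) than in shControl (846 ± 40.6, SD, n = 3), which is -0.30 on the log2 scale (adjusted p 0.0037, limma) and -0.52 after rescaling (adjusted p 0.000522, limma). RPS23P8 likewise had 1014 ± 51.2 (SD, n = 3) against 1206 ± 49.9 (SD, n = 3), which is -0.25 on the log2 scale (adjusted p 0.00783, limma) and -0.47 after rescaling (adjusted p 0.000644, limma). EIF5AL1, an intronless relative of the translation factor gene EIF5A, was added after its values were seen. It was higher in knockdown (926 ± 38.3, SD, n = 3) than in shControl (744 ± 20.0, SD, n = 3), which is 0.32 on the log2 scale (adjusted p 0.00223, limma). After rescaling its call was lost, at 0.10 on the log2 scale (adjusted p 0.148, limma).

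The patterns over the 6 libraries were compared with those of the other symbols by Pearson correlation of log2 values, as a description. All rows share the group difference and the scale of each library, which raise such correlations. EIF4B was most like COX5A (r = 0.976) and PABPC1 (0.970). EIF4BP7 was most like CDC42P6 (0.999), itself a processed copy, and AZIN1 (0.984). PABPC1 was most like CDC42 (0.989) and GBA3 (0.974), and PABPC3 most like CASK (0.980) and EIF4B (0.968). Of the falling genes, SARS1 was most like RN7SL4P (0.966) and SV2C (0.955), and EIF2S2P4 most like RPS23P8 (0.971) and EIF1 (0.921).

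A few checks could not be made. The spans of EIF4B, PABPC1, PABPC3 and EIF2S2P4 overlap other annotated genes. Some are antisense, such as TNS2-AS1 at EIF4B and ERICH2-DT at EIF2S2P4. Others, such as MIR7705 at PABPC1, lie on the same strand, where strand would not separate the reads. The libraries were stranded, but whether the counting used strand is not given in the sources used here. RESF1 has no row under its symbol, so the knockdown was not checked against the targeted gene in these data. The paper reports RESF1 knockdown in this cell line by qRT-PCR and western blot. None of 15 markers of breast cancer cells or other cell types had a row under its symbol. A copy of the keratin marker gene KRT8, KRT8P10, did have a row, and it was higher in knockdown (274 ± 14.6, SD, n = 3) than in shControl (174 ± 16.3, SD, n = 3). That is 0.65 on the log2 scale (adjusted p 0.000699, limma) and 0.44 after rescaling (adjusted p 0.00227, limma), and its part in the results was not tested. Whether fewer of the cells held an RNA or each cell held less of it cannot be told apart in such bulk samples. Since the depth of the libraries is unknown, no interval from read counts is given.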

How the data were processed

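Total RNA-seq of 3 shControl and 3 knockdown libraries was analysed. Groups came from the sample titles, and each column was assigned to a group only, because it carries a running number and no replicate number. Reads had been aligned by the authors to the telomere-to-telomere human genome with STAR 2.7.8a (version also given in the submitters' processing notes) in Partek, scaled by median ratio, and analysed with DESeq2. How reads were counted is not given in the sources used here. The deposited values are a signal, normalized read counts that are not whole: the best single step placed 46.7% to 53.8% of the values under 150 of a library within 0.1 of a whole number.

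Changes were tested on log2(value + 1) with limma 3.58.1 (R 4.3.3), two-sided, with Benjamini-Hochberg adjustment over all 219 rows and no covariate, after a test on simulated data. Ratios of rows were compared by an exact permutation test. Fold changes on this scale understate those of low rows. Named genes are the 6 members, genes of preset lists and the 2 symbols most like each member. The members and lists were chosen with earlier results of these data known. Symbols and sequences were taken from GENCODE 44 on GRCh38, another build than that of the authors, and RefSeq promoters, and aligned with blastn 2.17.0. Alternatives were other pseudocounts, a mean filter, rescaling, removal of duplicate rows, a variance trend and leaving out each library. Columns of unused values numbered 0.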

Additional observations from a re-analysis of the deposited data

How the results depend on the processing

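Among the alternatives run for the 6 genes, 1 changed a call: EIF4BP7 had a log2 change of 0.066 (limma adjusted p 0.263) after rescaling within the table. The factors came from rows selected for the comparison, so rescaling is not a correction. Under the other alternatives run, each gene kept its direction and its call. SARS1 had no value with a mean of at least 200, which left 5 of 5 genes called. Leaving out 1 library at a time gave log2 changes of 0.44 to 0.58 for EIF4B, 0.27 to 0.30 for EIF4BP7, 0.69 to 0.77 for PABPC1, 0.66 to 0.91 for PABPC3, -0.72 to -0.52 for SARS1 and -0.42 to -0.31 for EIF2S2P4. Over the whole table, where 219 of 219 rows were called, leaving out 1 library left 211 to 215 called, and rescaling left 181, with 7 rows changing sign. The log2 difference of the EIF4BP7 to EIF4B ratio ranged from -0.29 to -0.14, that of PABPC3 to PABPC1 from -0.03 to 0.15 and that of PABPC1 to EIF4B from 0.16 to 0.26.

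No paired analysis was possible because no column name holds the replicate number of a title. The count-based alternatives (edgeR, TMM and DESeq2 size factors) were not run, since they need whole reads. Alternatives were listed with earlier results of these data known.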
